A study of Mus musculus with 13 samples.

Results

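Non-homologous end joining rejoins the ends of a broken chromosome, and the 9 mouse genes described here code for its core and for the signalling that starts at a break: Xrcc6, Xrcc5, Prkdc, Dclre1c, Lig4, Xrcc4, Nhej1, Atm and Trp53bp1. They were taken by symbol from the gene lists of 2 Parse single-cell kits, and all 9 were present among the 57010 genes of each list. Thymi of female C57BL/6N mice aged 2 months were used, with 2 mice per kit, and each thymus was taken apart into its lobes, digested with collagenase/dispase and DNase I, and fixed before barcoding. The Parse WT kit held 4 thymic lobes together with 16 other tissue samples in 9 sublibraries, and its labels name thymus and spleen, and control and chronic stress, without saying which of the 16 wells was which, whereas the study's text calls these wells non-thymic. The names of these 16 samples fall into groups by prefix, and the prefixes were not used to assign a tissue or a condition. The Parse Mini kit, a repeat with the same set-up, held 4 control lobes in 2 sublibraries. No mutant, transgene or drug was part of the thymic groups. The groups compared were therefore classes of thymocytes within the same lobes, and the cells of the 16 other wells are given as ranges only.

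Each developing T cell cuts its own antigen receptor genes with the RAG recombinase, and the ends are sealed by end joining. The Ku heterodimer, made of Ku70 (Xrcc6) and Ku80 (Xrcc5), binds a free end and recruits the kinase DNA-PKcs (Prkdc), which activates the nuclease Artemis (Dclre1c) to open the hairpins that RAG leaves. DNA ligase IV (Lig4), its partner Xrcc4 and the filament protein XLF (Nhej1) seal the break, while the kinase Atm and the chromatin reader 53BP1 (Trp53bp1) signal it and hold the ends together. Recombination takes place in resting thymocytes, and RAG is low in cells that replicate their DNA and is switched off when the cells mature.

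Cells were clustered without the 9 genes, so that their levels did not decide the classes, and clusters were named from marker lists, each name standing for a likeness to that cell type. The Rag-expressing class, named by markers that include Rag1, Rag2, Arpp21, Dntt, Aqp11, Cd8b1 and Slc7a11, which mark the immature double-positive stage, held 14832 cells in Parse WT and 7285 in Parse Mini. The S phase class held 1811 and 974 cells, the G2/M class 1253 and 747, the CD4 lineage class 2585 and 1680, and the CD8 lineage class 741 and 457. Clusters nearest to S phase (1593 cells) and G2/M (1513) in Parse WT, and to G2/M (963 and 684) in Parse Mini, were left unnamed because their median UMIs were over 3 times those of their samples. The G2/M classes of the kits were unlike. Leading genes of that of Parse WT (Aspm, Pif1, Depdc1b and Ccnb1) led the unnamed cluster of 684 cells in Parse Mini. The G2/M class of Parse Mini was led in part by Neil3 and E2f7, which led an S phase cluster of Parse WT. A pair of Parse WT clusters nearest to the CD4 lineage was also left unnamed, because their markers were raised too little. They held 1829 and 1244 cells, led by Ms4a4b and Gm2682, together more than the CD4 lineage class. The cluster of 1829 cells also had median UMIs 3.77 times those of its samples, with Mastl and Neil3 among its 10 leading genes. Levels are given as CPM, the UMIs of a gene per 1000000 UMIs outside ribosomal RNA, summed over the cells of a class in a lobe. By this measure Rag1, a naming marker, stood at 1565 ± 260 CPM (SD, n = 4 lobes) in the Rag-expressing class of Parse WT, at 415 ± 24.1 in S phase, at 219 ± 27.9 in the CD4 lineage and at 371 ± 43.5 in the CD8 lineage. In Parse Mini it stood at 2018 ± 109 CPM in the Rag-expressing class, at 827 ± 29.3 in S phase, at 478 ± 52.6 in the CD4 lineage and, over a wide range from 162 to 912, at 511 ± 319 in the CD8 lineage. Against S phase and G2/M together, Rag1 was 2.90-fold higher in Parse WT and 2.85-fold in Parse Mini, as the geometric mean over lobes. Rag2 was higher by less, 1.43-fold in Parse WT, where the lobes overlapped, and 1.80-fold in Parse Mini, where they did not. The lobes held between 30450786 and 124106974 UMIs in Parse WT and between 28057164 and 33264104 in Parse Mini, and between 11.5% and 31.0% of the cells of a lobe lay in clusters left unnamed. Lobe 1 of Parse WT stood apart, with 4178 cells against 10093 to 15077 in the other lobes of that kit. A Rag-expressing cluster of 583 cells in Parse WT, led by Rn7sk, came to 99.0% from 1 lobe, and its part in the levels was tested only by leaving out each lobe. The CD4 lineage class joined 2 clusters in each kit, of which the one of 1312 cells in Parse WT and 930 in Parse Mini had 6 and 7 of its 10 leading genes in common with a selected double-positive cluster (Chl1, Itm2a and Stk39 in both kits) and 2 CD4 lineage markers among them. The other cluster, of 1277 and 804 cells, had none in common. The kits shared 460 cell names and no name was repeated within a kit.

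Rag1 also appeared in cells that should lack it. The B cell-like class of the Parse WT lobes carried 163, 648, 630 and 534 CPM of Rag1 in lobes 1 to 4, and that of Parse Mini 767, 437, 269 and 334, against 5.23 CPM in the pooled B cells of the other wells. With the level in those B cells subtracted from both, this came to 15.8%, 85.0%, 70.7% and 71.9% of the Rag1 level over all cells of the Parse WT lobes, and to between 23.9% and 64.6% in Parse Mini. The values of the B cell-like class are therefore given beside the genes that were higher in Rag-expressing than in mature cells. Lobe 1 of Parse WT, which had the most B cell-like cells (245), was the lowest in Rag1 there. The B cell-like class of Parse Mini held 34, 25, 23 and 30 cells in lobes 1 to 4, so its lobe counts given below rest on few cells.

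Against the mature classes, all 9 genes passed the threshold in both kits. Xrcc6, Dclre1c, Lig4, Xrcc4 and Nhej1 were higher in Rag-expressing thymocytes, and Xrcc5, Prkdc, Atm and Trp53bp1 were lower. The background was high: edgeR's quasi-likelihood test called 53.6% of 10461 genes in this comparison in Parse WT (25.9% higher, 27.7% lower) and 47.1% of 9658 genes in Parse Mini (23.2% higher, 23.9% lower), each at an adjusted p under 0.05. The median log2 difference of the 9 genes was 0.28 in Parse WT and 0.33 in Parse Mini, against 0.01 and 0.02 over all genes tested. With 5 genes higher and 4 lower, this median is the value of Xrcc4, the smallest rise, and does not describe a shift of the set. With the CD4 lineage cluster close to selected cells left out, an alternative chosen after seeing the data, all 9 genes passed in the same directions in both kits, with Xrcc6 at 2.01 and 1.44 and Lig4 at 1.83 and 1.33. With every unnamed cluster put in its nearest class, also chosen after seeing the data, which brings the unnamed CD4 lineage-like clusters into the mature class, 8 of the 9 genes passed in Parse WT and 9 in Parse Mini, and Xrcc6 stood at 1.34 and 1.63, Dclre1c at 1.40 and 1.28 and Lig4 at 1.23 and 1.51. Nhej1 in Parse WT missed the threshold (0.31, adjusted p = 0.0589). Against the CD8 lineage alone, which left out both CD4 lineage clusters, Xrcc6 (1.77 in Parse WT and 1.70 in Parse Mini), Dclre1c (1.49 and 1.22), Lig4 (1.51 and 1.38), Xrcc5 (-0.83 and -0.91), Atm (-1.44 and -1.29) and Trp53bp1 (-0.67 and -0.55) stayed past the threshold, as did Prkdc (-0.53 and -0.30) and Xrcc4 (0.32 and 0.40). Nhej1 passed there in Parse Mini (0.95) and not in Parse WT (0.23, adjusted p = 0.416). The study took 2 mice per kit. With the lobe as a block, the p-values measure how class differences vary between the 4 lobes, over all classes in the fit. They do not measure the spread between mice. Sample names in Parse WT do not tell the mice apart, while those in Parse Mini end in A or B, the letters the study gives its mice. With the lobes of each letter summed, an alternative chosen after seeing the data, all 9 genes passed against mature cells and the same 6 against cycling cells, in the same directions.

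Against the cycling classes, S phase and G2/M pooled, the 9 genes again went both ways. In Parse WT 7 passed, with Dclre1c, Xrcc4 and Lig4 higher in Rag-expressing cells and Atm, Prkdc, Nhej1 and Xrcc5 lower, where 63.4% of all genes were called (31.4% higher, 32.0% lower). In Parse Mini 6 passed, with the same 3 higher and Atm, Prkdc and Xrcc5 lower, where 62.0% of all genes were called (32.3% higher, 29.7% lower). Against cycling cells the counts of members called thus lay near the background share, whereas against mature cells all 9 were called over a background of 53.6% and 47.1%, and the results below rest on the sizes of the differences. Both comparisons use the same Rag-expressing cells and are not independent of each other.

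**Figure D1:**
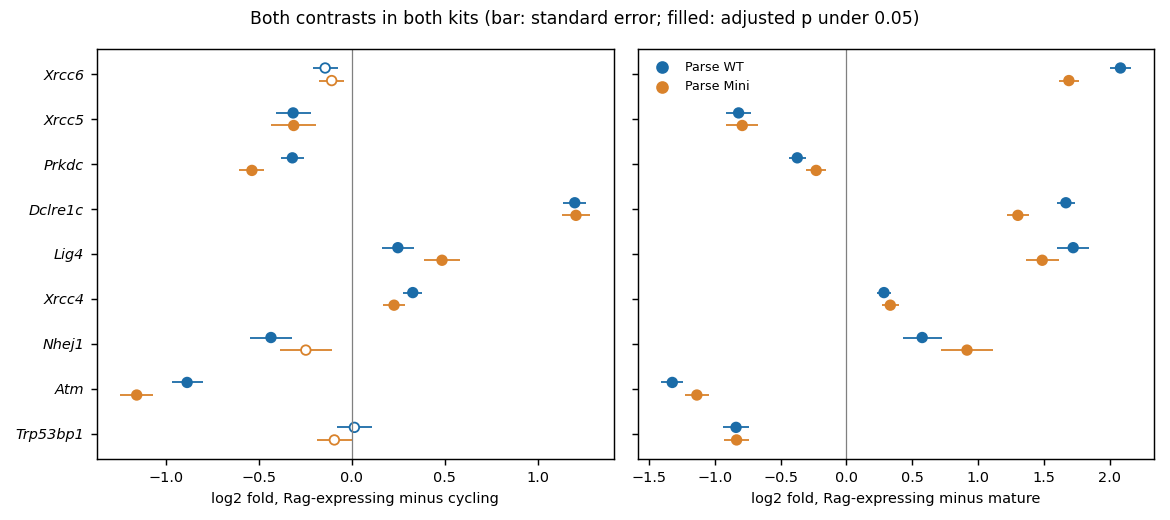
Log2 difference between Rag-expressing and cycling thymocytes (left) and mature thymocytes (right) for the 9 genes in Parse WT and Parse Mini, with bars for the standard error and filled points for an adjusted p under 0.05. Against mature cells Xrcc6, Dclre1c and Lig4 lie between 1.30 and 2.08 and Atm, Trp53bp1 and Xrcc5 between -1.32 and -0.79, while against cycling cells Dclre1c alone lies above 1.

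The promoters of 5 of the genes are printed to show the sequence that stands before the 3 genes with the largest rise against mature cells (Xrcc6, Dclre1c and Lig4) and before a pair that was lower there (Xrcc5 and Atm). Each runs from 250 bases before to 50 bases after the start in RefSeq on GRCm38.p6, 5′ to 3′ on the strand of the gene, and capitals mark the motifs that were searched and found.
Xrcc6, chr15:82016119-82016418, plus strand: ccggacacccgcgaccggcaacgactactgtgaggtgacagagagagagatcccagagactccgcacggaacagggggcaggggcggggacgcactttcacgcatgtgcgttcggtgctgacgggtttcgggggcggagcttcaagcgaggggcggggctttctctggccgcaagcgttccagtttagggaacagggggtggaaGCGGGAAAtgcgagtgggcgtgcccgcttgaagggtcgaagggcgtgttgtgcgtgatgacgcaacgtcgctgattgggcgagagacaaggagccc
Dclre1c, chr2:3423881-3424180, plus strand: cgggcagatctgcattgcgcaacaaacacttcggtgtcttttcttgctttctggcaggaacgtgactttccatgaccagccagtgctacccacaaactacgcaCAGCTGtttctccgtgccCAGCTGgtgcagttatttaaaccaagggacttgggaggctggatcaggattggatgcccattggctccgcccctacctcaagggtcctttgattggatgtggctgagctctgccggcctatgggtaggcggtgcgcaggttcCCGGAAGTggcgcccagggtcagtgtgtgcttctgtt
Lig4, chr8:9977631-9977930, minus strand: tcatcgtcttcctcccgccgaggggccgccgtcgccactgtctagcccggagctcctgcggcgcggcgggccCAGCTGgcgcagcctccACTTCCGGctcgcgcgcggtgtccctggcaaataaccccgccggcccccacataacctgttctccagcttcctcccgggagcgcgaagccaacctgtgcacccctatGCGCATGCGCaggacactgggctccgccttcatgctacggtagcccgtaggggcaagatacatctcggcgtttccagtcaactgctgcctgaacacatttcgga
Xrcc5, chr1:72307171-72307470, plus strand: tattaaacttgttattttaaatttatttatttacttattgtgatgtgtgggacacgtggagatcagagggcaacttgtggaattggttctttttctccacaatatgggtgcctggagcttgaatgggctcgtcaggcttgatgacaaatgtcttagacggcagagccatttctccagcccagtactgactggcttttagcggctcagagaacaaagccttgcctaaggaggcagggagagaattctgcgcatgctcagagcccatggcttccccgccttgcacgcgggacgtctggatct
Atm, chr9:53536622-53536921, minus strand: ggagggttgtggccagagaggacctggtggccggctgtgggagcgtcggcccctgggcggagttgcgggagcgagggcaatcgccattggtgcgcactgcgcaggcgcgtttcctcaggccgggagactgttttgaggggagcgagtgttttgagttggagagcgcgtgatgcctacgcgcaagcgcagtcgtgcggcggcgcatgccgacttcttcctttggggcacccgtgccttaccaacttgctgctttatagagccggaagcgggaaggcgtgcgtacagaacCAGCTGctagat

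Letters of 6 kinds of transcription factor were searched on both strands. For E2F factors, TTTCCCGC lay in the Xrcc6 promoter on its minus strand, 46 bases before the start, and in 1.11% of 27025 promoters, while the further forms TTTGGCGC (0.537% of promoters) and TTTCGCGC (0.318%) were found in none of the 8 members with a promoter in the table, all but Prkdc. For ETS factors, CCGGAAGT occurred in Dclre1c, 13 bases after the start, and in Lig4 on the strand opposite the gene, 161 bases before the start, and in 4% of all promoters. The NRF1 motif, the longest run of capitals in the Lig4 promoter, lay 54 bases before its start and is present in 0.977% of promoters. The E-box CAGCTG, which no other motif overlapped, occurred in Dclre1c (147 and 129 bases before the start), Lig4 (178 before) and Atm (38 after), and in 16.1% of all promoters. TGTGGTT for RUNX and AGGTCA for ROR, present in 5.37% and 16.04% of promoters, were found in none of these 8. No motif was present in all 3 of the genes with the largest rise. In Xrcc5, Xrcc4, Nhej1 and Trp53bp1 none of these letters were found, which says only that they are not in this window. A second RefSeq start of Lig4 held 1 E-box, 71 bases before it, and the RefSeq start of Xrcc6 lies inside the longer gene model of GENCODE, which begins at 81987835.

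Xrcc6 and Xrcc5, whose proteins form the Ku heterodimer, went in opposite directions between Rag-expressing and mature thymocytes. Xrcc6 lies on chromosome 15 (81987835 to 82040085, plus strand, GRCm38, GENCODE M21) and Xrcc5 on chromosome 1 (72307421 to 72394952, plus strand). In Rag-expressing cells of Parse WT the level of Xrcc6 was 633, 757, 761 and 585 CPM in lobes 1 to 4. In the CD4 lineage it was 96.2, 172, 145 and 124 CPM, and in the CD8 lineage 152, 223, 236 and 205 CPM. The Rag-expressing values lay above every mature value, and the difference was 2.08 ± 0.079 on the log2 scale (SE, adjusted p = 1.21e-29 by edgeR's quasi-likelihood test), a 4.18-fold difference as the geometric mean over the lobes. In Parse Mini the Rag-expressing class stood at 711, 668, 726 and 763 CPM, the CD4 lineage at 234, 231, 233 and 243 CPM and the CD8 lineage at 354, 97.2, 205 and 271 CPM. These groups did not overlap either, and the difference was 1.69 ± 0.078 (adjusted p = 1.33e-30). Lobe 2 gave the low CD8 lineage value.

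Xrcc6 was high in cycling cells as well. It stood at 720 ± 88.4 CPM in S phase and 760.0 ± 93.3 in G2/M of Parse WT, and at 736 ± 64.5 and 886 ± 86.6 in Parse Mini (SD, n = 4). The differences of -0.14 ± 0.068 and -0.11 ± 0.067 missed the threshold (adjusted p = 0.0604 and 0.153). They passed, with Rag-expressing cells lower, in 4 of 16 alternatives in Parse WT and in 5 of 17 in Parse Mini. These were without lobe 1 (-0.0921, adjusted p = 0.0495), thinned (-0.14, adjusted p = 0.0284) and with no likely doublets left out (-0.14, adjusted p = 0.0355) in Parse WT. In Parse Mini they were without lobe 2 (-0.14, adjusted p = 0.0123), with no TMM factors (-0.17, adjusted p = 0.0229), and with none (-0.16, adjusted p = 0.00136) or 25% (-0.15, adjusted p = 0.04) left out as likely doublets. The remaining one in each kit was the comparison with the G2/M class alone (-0.23, adjusted p = 0.0188, and -0.32, adjusted p = 0.000435). The values turned positive, short of the threshold, with gates in Parse WT (0.0543), and in Parse Mini against S phase alone (0.10) and with unnamed clusters put in the nearest class (0.0349). Its level was 571 ± 56.7 CPM in the Il2ra-positive double-negative class of Parse WT, 369 ± 83.1 in selected double-positive cells and 292 ± 106 in strongly signalled cells, so the levels ran down from the cycling and Rag-expressing classes through selection to the CD4 lineage at 134 ± 32.2. The 3 highest classes, G2/M, S phase and Rag-expressing, overlapped in their lobes, and the double-negative class overlapped Rag-expressing cells. The selected and strongly signalled classes overlapped each other.

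The B cell-like cells of the same lobes carried 116, 482, 393 and 301 CPM of Xrcc6 in Parse WT, above the CD4 lineage in each of the 4 lobes. In Parse Mini the B cell-like class was above the CD4 lineage in 2 of 4 lobes. It was above the CD8 lineage in 3 of 4 lobes of each kit. B cells of the other wells held 38.8 CPM in the median sample. The part of RNA from other cells in the mature level of Xrcc6 itself was not tested. Without lobe 1 of Parse WT, where such Rag1 was lowest, the difference from mature cells was 1.99.

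Xrcc5 moved the other way and was a lower-count gene. In the Rag-expressing class it stood at 31.7, 38.3, 36.9 and 33.3 CPM in the lobes of Parse WT, in the CD4 lineage at 69.2, 58.8, 66.4 and 60.1 CPM, and in the CD8 lineage at 72.5, 74.4, 68.4 and 50.2 CPM. Every mature value lay above every Rag-expressing value. The difference was -0.82 ± 0.096 (adjusted p = 1.39e-10) in Parse WT and -0.79 ± 0.123 (adjusted p = 7.88e-08) in Parse Mini, where the Rag-expressing lobes ranged from 31.4 to 41.4 CPM and the CD4 lineage from 48.5 to 71.0. With classes from gates on marker UMIs in place of clusters, the Parse WT difference was -0.36 and missed the threshold (adjusted p = 0.0562). In S phase the level was 53.7 ± 10.6 CPM in Parse WT and 63.4 ± 7.05 in Parse Mini, and in G2/M 32.4 ± 1.69 and 34.5 ± 8.17 CPM. Rag-expressing cells were thus lower than S phase by 0.67 in both kits (adjusted p = 1.21e-07 and 4.07e-06), while against G2/M the differences were 0.03 and 0.05 with adjusted p of 0.867 and 0.836. Against both cycling classes the differences were -0.32 ± 0.095 (adjusted p = 0.00308) and -0.31 ± 0.120 (adjusted p = 0.02), and the call was lost without lobe 4 of Parse WT (-0.23, adjusted p = 0.0903) and without lobe 2 (-0.29, adjusted p = 0.0857) or lobe 3 (-0.23, adjusted p = 0.138) of Parse Mini. It was also lost in both kits with cells thinned to 1000 UMIs (adjusted p = 0.0825 and 0.758), and in Parse WT with gates (-0.19, adjusted p = 0.195) and with 25% of each sample left out as likely doublets (-0.23, adjusted p = 0.0667).

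The UMIs of Xrcc6 per UMI of Xrcc5 summarise this split. The ratio ranged from 17.6 to 20.7 over the Rag-expressing lobes of Parse WT, with a median of 19.9, and from 1.39 to 2.93 in the CD4 lineage, with a median of 2.12. In Parse Mini the medians were 19.0 and 3.85. Rag-expressing cells did not have the highest ratio, since the median was 24.0 in G2/M of Parse WT and 26.1 in Parse Mini. In Parse WT the B cell-like class had a median of 7.92, from 1.28 to 10.3 over the lobes, against 0.449 in B cells of the other wells. Dendritic cells had a median of 10.9 over the 3 lobes that gave a ratio, against 1.4 in the other wells. There the median was 0.510 in CD4 T cells and 0.458 in CD8 T cells, but 3.19 in plasmacytoid dendritic cells and 6.29 in Rag-expressing cells. It is a ratio of transcripts counted under different gene lengths and says nothing of the amounts of either protein.

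The reads of Xrcc6 carry a further limit. Desi1, which codes for a desumoylating isopeptidase and was singled out after its values were seen, lies on the opposite strand within the gene body of Xrcc6 (chromosome 15, 81992523 to 82033862), with 41340 bases shared in the GENCODE M21 model. The RefSeq start of Xrcc6 lies within Desi1, so from that start the overlap is shorter. Its differences were close to those of Xrcc6, at 1.97 ± 0.082 against mature and -0.23 ± 0.070 against cycling cells in Parse WT, and 1.62 and -0.29 in Parse Mini. No source used here says whether reads were counted by strand, so how many reads of one gene were counted for the other is not known. The counts of the pair were not alike in every class. In the other wells the medians of Desi1 and Xrcc6 were 105 and 28.9 CPM in plasma cells, and 40.5 and 38.8 CPM in B cells. Neighbours outside the overlap were also looked up after the values were seen. Against mature cells Snu13 stood at 0.30 and 0.23 without passing the threshold, and Pmm1 at 1.47 and 1.44 in Parse WT and Parse Mini.

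**Figure D2:**
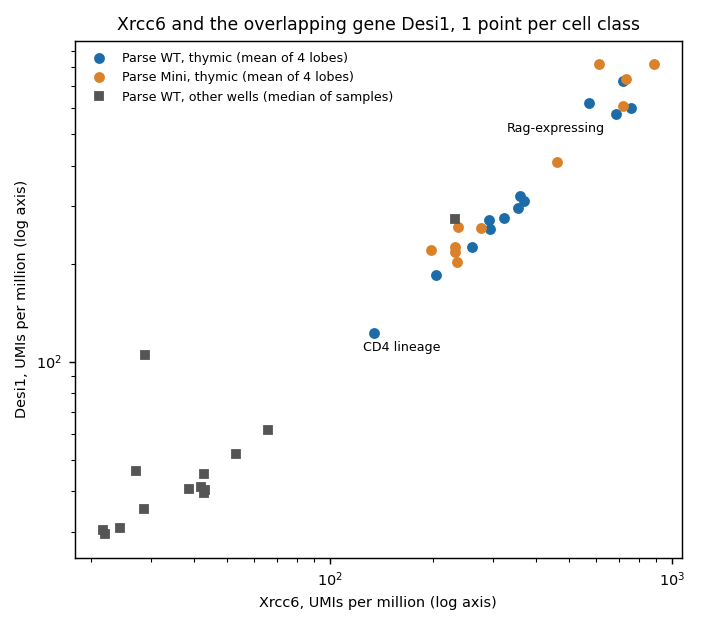
Level of Xrcc6 against that of Desi1, in CPM on log axes, with 1 point for each class of cells (mean of the 4 lobes of a kit for thymic classes, median of the samples for the other wells). The points rise together, with the Rag-expressing and cycling thymocytes at the top end, and those of the other wells at the lower end except for their Rag-expressing class at 232 CPM of Xrcc6.

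Prkdc and Dclre1c, the kinase and nuclease that open hairpin ends, differed from each other in the same cells. Dclre1c (chromosome 2, 3424131 to 3464130, plus strand) was highest, among the thymocyte classes, in Rag-expressing cells, with 431, 324, 362 and 352 CPM in the lobes of Parse WT and 367, 404, 324 and 345 CPM in Parse Mini. In S phase it stood at 166, 125, 107 and 118 CPM in Parse WT, and in G2/M at 230, 170, 179 and 180 CPM. No cycling value reached the lowest Rag-expressing value, and the difference was 1.20 ± 0.061 (adjusted p = 2.91e-24) in Parse WT and 1.21 ± 0.076 (adjusted p = 2.3e-23) in Parse Mini. Dclre1c was the gene of the 9 with the largest rise against cycling cells in both kits, a 2.36-fold and 2.21-fold difference as the geometric mean over lobes.

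Against mature cells Dclre1c rose as well. Its level in the CD4 lineage was 93.5, 114, 106 and 105 CPM in Parse WT, and in the CD8 lineage 156, 120, 130 and 131 CPM, all under the Rag-expressing lobes. The difference was 1.67 ± 0.068 (adjusted p = 2.79e-28) in Parse WT and 1.30 ± 0.083 (adjusted p = 8.42e-23) in Parse Mini. The B cell-like class of Parse WT held 122, 190, 178 and 168 CPM, above the CD4 lineage in all 4 lobes, against 2 of 4 lobes in Parse Mini. It was above the CD8 lineage in 3 of 4 lobes of Parse WT and in 1 of 4 of Parse Mini. What RNA from other cells adds to the mature level was not tested. In selected double-positive cells the level was 233 ± 16 CPM, between the Rag-expressing and mature classes. Dclre1c overlaps Suv39h2 on the opposite strand by 8316 bases, but Suv39h2, looked up after the values were seen, went the other way against cycling cells (-1.28 in Parse WT and -1.44 in Parse Mini), and against mature cells had values of 0.48 and 0.75, the sign of Dclre1c, that missed the threshold (adjusted p = 0.141 and 0.146).

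Prkdc (chromosome 16, 15637866 to 15842235, plus strand) was lower in Rag-expressing than in cycling cells by 0.32 ± 0.063 on the log2 scale in Parse WT (adjusted p = 1.56e-05) and by 0.54 ± 0.067 in Parse Mini (adjusted p = 1.16e-10). Its level was 122 ± 7.79 CPM in the Rag-expressing class of Parse WT and 144 ± 11.6 in Parse Mini (SD, n = 4). S phase was the high class, at 197 ± 15.0 and 270 ± 7.55 CPM, and G2/M stood at 112 ± 15.1 and 174 ± 5.16. Against G2/M alone the sign turned in Parse WT (0.04, adjusted p = 0.719), while Parse Mini, whose G2/M class was unlike that of Parse WT, kept it (-0.30, adjusted p = 0.00247). Against mature cells Prkdc was lower by 0.37 ± 0.066 in Parse WT (adjusted p = 2.69e-06) and by 0.23 ± 0.074 in Parse Mini (adjusted p = 0.00758). The Parse Mini call was lost without lobe 2 (-0.18, adjusted p = 0.0758) and against the CD4 lineage alone (-0.16, adjusted p = 0.0934), and with gates it was lost in both kits (-0.05, adjusted p = 0.748, and -0.24, adjusted p = 0.0772).

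Lig4, Xrcc4 and Nhej1, which code for the ligation complex, were all higher in Rag-expressing than in mature cells, by very different amounts. Lig4 (chromosome 8, 9969049 to 9977686, minus strand) stood at 74.3, 71.3, 49.9 and 64.5 CPM in the Rag-expressing lobes of Parse WT. In the CD4 lineage it was 10.8, 23.5, 13.4 and 20.0 CPM, and in the CD8 lineage 21.2, 30.9, 19.6 and 22.5 CPM. The groups did not overlap, and the difference was 1.72 ± 0.120 (adjusted p = 1.66e-18), with 103 UMIs behind the CD4 lineage and 63 behind the CD8 lineage. In Parse Mini the Rag-expressing lobes ranged from 68.0 to 85.0 CPM and the mature values from 8.84 to 42.3, a difference of 1.49 ± 0.127 (adjusted p = 7.76e-17). The B cell-like class of Parse WT held 9.42, 57.5, 31.3 and 44.4 CPM of Lig4, above the CD4 lineage in 3 of 4 lobes, against 1 of 4 in Parse Mini. It was above the CD8 lineage in 3 of 4 lobes of Parse WT and in 2 of 4 of Parse Mini. The part of RNA from other cells in the mature level was not tested. Without lobe 1 of Parse WT the difference was 1.58.

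Against cycling cells Lig4 rose by less, with 0.25 ± 0.087 in Parse WT (adjusted p = 0.0114) and 0.49 ± 0.097 in Parse Mini (adjusted p = 1.3e-05). The Rag-expressing lobes overlapped the cycling ones in Parse WT and not in Parse Mini. Levels were 48.5 ± 7.70 CPM in S phase and 59.0 ± 9.83 in G2/M of Parse WT. The call was lost in Parse WT against G2/M alone (0.10, adjusted p = 0.486) and without the replicate block of lobes (0.23, adjusted p = 0.151), and in both kits with cells thinned to 1000 UMIs (0.16, adjusted p = 0.312, and 0.29, adjusted p = 0.14). With gates it was lost in Parse Mini (0.23, adjusted p = 0.0763).

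Xrcc4 (chromosome 13, 89774027 to 90089608, minus strand) varied least. Its level was 272 ± 19.0 CPM in the Rag-expressing class, 209 ± 35.6 in S phase, 212 ± 25.5 in G2/M and 239 ± 33.2 in the CD4 lineage of Parse WT. Rag-expressing cells were higher than cycling cells by 0.33 ± 0.052 (adjusted p = 2.64e-07) and than mature cells by 0.28 ± 0.055 (adjusted p = 1.57e-05), and in Parse Mini by 0.23 (adjusted p = 0.000606) and 0.33 (adjusted p = 9.34e-06). Against G2/M alone the Parse Mini value was 0.15 and missed the threshold (adjusted p = 0.0826). The lobes of the groups overlapped in Parse WT in both comparisons, but within each lobe the Rag-expressing class was the higher, in 4 of 4 lobes. Xrcc4 shares 113140 bases with the antisense gene Gm4117, and without a known strand the reads of the pair cannot be told apart.

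Nhej1 (chromosome 1, 74967139 to 75125200, minus strand) was highest in G2/M, with 56.5, 48.2, 38.5 and 37.7 CPM in Parse WT and 40.6, 42.1, 38.7 and 51.9 in Parse Mini. In Rag-expressing cells it was 28.6, 27.7, 22.0 and 29.0 CPM in Parse WT and between 28.9 and 31.8 CPM in Parse Mini, below every G2/M value of the same kit. Against G2/M alone it was lower by 0.74 (adjusted p = 1.96e-05) and 0.56 (adjusted p = 0.00626), whereas against S phase the differences of -0.13 and 0.07 missed the threshold (adjusted p = 0.437 and 0.752). Against cycling cells together the values were -0.44 ± 0.113 in Parse WT (adjusted p = 0.000732) and -0.25 ± 0.14 in Parse Mini (adjusted p = 0.119), while with no likely doublets left out Parse Mini passed too (-0.33, adjusted p = 0.0273). The Parse WT call was lost with gates (-0.0413, adjusted p = 0.827) and with unnamed clusters put in the nearest class (-0.22, adjusted p = 0.0534). Against mature cells Nhej1 was higher by 0.58 ± 0.148 (adjusted p = 0.000807) and 0.92 ± 0.195 (adjusted p = 5.38e-05), on few counts, with 86 UMIs in the CD4 lineage and 65 in the CD8 lineage of Parse WT. The B cell-like class lay above the CD4 lineage in 3 of 4 lobes of each kit for Nhej1, and in 0 of 4 and 1 of 4 lobes for Xrcc4. It lay above the CD8 lineage in 1 of 4 and 2 of 4 lobes for Nhej1, and in 0 of 4 and 2 of 4 for Xrcc4. The lobes of Nhej1 overlapped between Rag-expressing and mature cells, and in Parse WT the mature call was lost with the CD8 lineage alone (0.23, adjusted p = 0.416), with gates (0.40, adjusted p = 0.0953) and with unnamed clusters put in the nearest class (0.31, adjusted p = 0.0589).

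**Figure D3:**
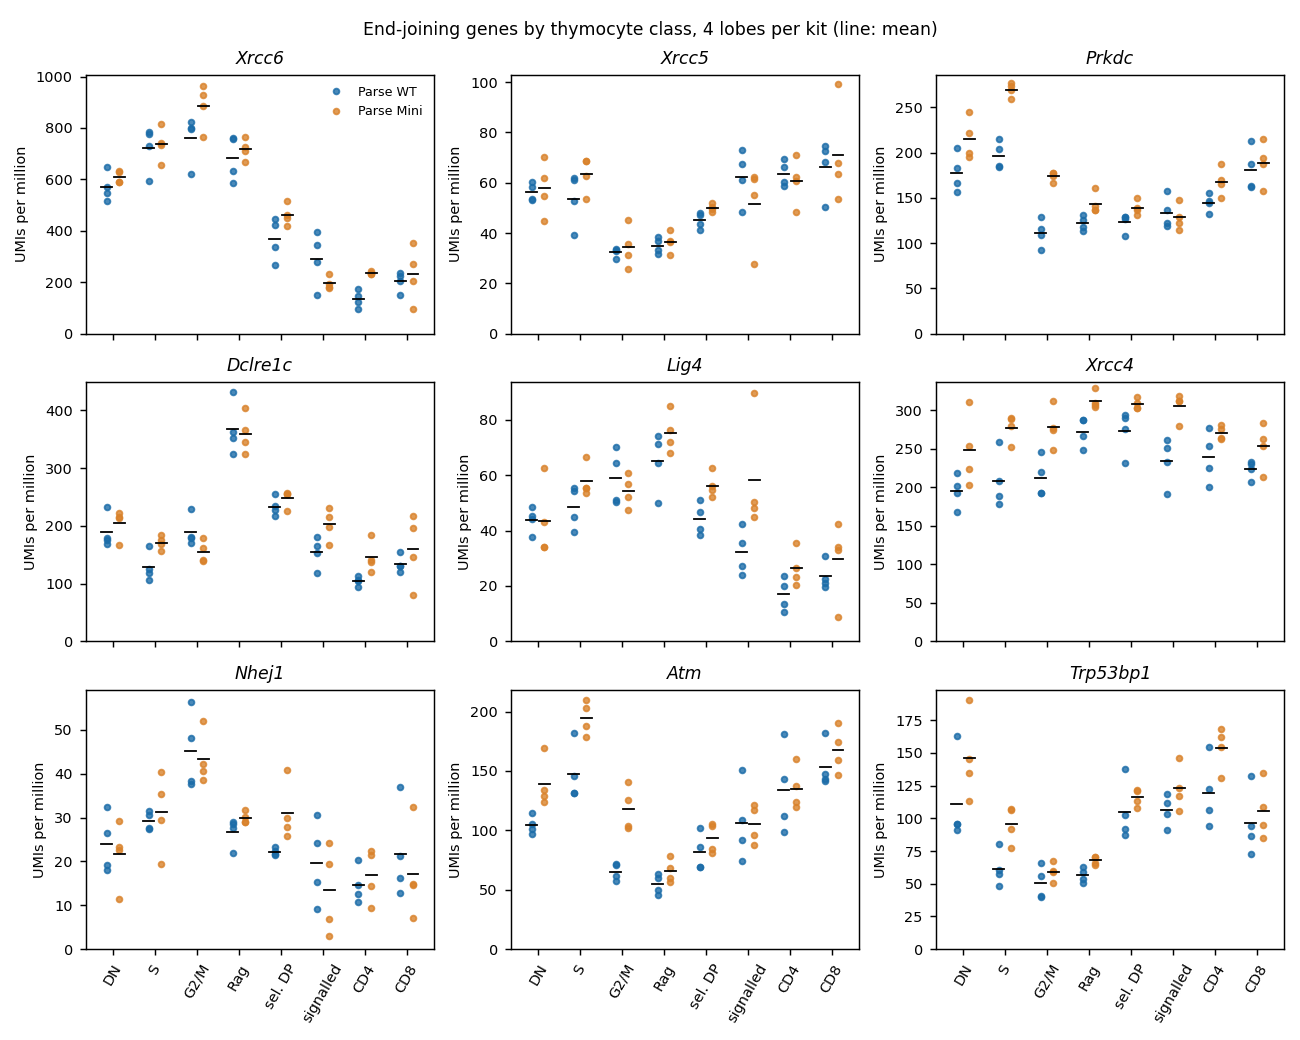
Level of each of the 9 genes in CPM in 8 classes of thymocytes, from double-negative cells on the left to the CD4 and CD8 lineages on the right, with 1 point per lobe and a line at the mean for Parse WT and Parse Mini. Dclre1c peaks in the Rag-expressing class, Xrcc6 is high from the double-negative to the Rag-expressing class and falls afterwards, and Atm is lowest in the Rag-expressing class with S phase and the mature lineages above it.

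Atm and Trp53bp1, the signalling genes, were lowest in or near the Rag-expressing class. Atm (chromosome 9, 53439149 to 53536740, minus strand) stood at 59.8, 63.6, 45.4 and 49.7 CPM in the Rag-expressing lobes of Parse WT. In S phase it was 182, 131, 146 and 131 CPM, and in G2/M 72.0, 70.6, 61.3 and 57.1 CPM, so that S phase lay apart and G2/M overlapped. The difference from cycling cells was -0.89 ± 0.084 (adjusted p = 1.24e-13) in Parse WT and -1.16 ± 0.087 (adjusted p = 1.82e-19) in Parse Mini, where G2/M at 118 ± 18.6 CPM also lay above the Rag-expressing class at 65.7 ± 10.1. The G2/M classes of the kits were unlike in their leading genes. Taken alone, S phase gave -1.42 in Parse WT and -1.44 in Parse Mini, and G2/M -0.36 (adjusted p = 0.00859) and -0.87 (adjusted p = 6.49e-10).

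Mature cells held more Atm than Rag-expressing cells. The CD4 lineage carried 181, 143, 112 and 98.4 CPM in Parse WT and the CD8 lineage 182, 147, 142 and 143 CPM. The groups did not overlap, and Rag-expressing cells were lower by 1.32 ± 0.083 (adjusted p = 3.31e-20) in Parse WT and by 1.14 ± 0.094 (adjusted p = 1.63e-17) in Parse Mini. Selected double-positive cells stood in between, at 81.5 ± 15.9 CPM. Atm and Dclre1c thus had nearly mirrored levels over the 9 thymocyte classes of Parse WT, with a Pearson correlation of -0.881 (-0.826 in Parse Mini), given as a description of classes that share lobes and library.

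Trp53bp1 (chromosome 2, 121193281 to 121271407, minus strand) was low in Rag-expressing cells at 53.8, 62.8, 59.0 and 50.2 CPM in Parse WT, as in S phase (61.5 ± 13.3) and G2/M (50.5 ± 12.9). The difference from cycling cells was 0.01 ± 0.096 in Parse WT and -0.09 ± 0.093 in Parse Mini (adjusted p = 0.914 and 0.385), and its sign changed with the setting. Against S phase alone the Parse Mini value was -0.36 (adjusted p = 0.00132), with S phase at 95.8 ± 14.2 CPM there, and with unnamed clusters put in the nearest class it was -0.27 (adjusted p = 0.000893). The double-negative class before these stages held 111 ± 34.5 CPM and the selected double-positive class after them 105 ± 22.8. Mature cells were higher, with 155, 122, 94.1 and 106 CPM in the CD4 lineage and 133, 94.4, 86.4 and 72.8 in the CD8 lineage. Rag-expressing cells were lower than mature cells by 0.84 ± 0.095 (adjusted p = 5.29e-11) and by 0.83 ± 0.096 in Parse Mini (adjusted p = 9.57e-12), with no overlap of lobes in either kit.

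Apart from the ratio of Xrcc6 to Xrcc5, levels of different genes were compared per length. Per kb of exon in the Rag-expressing class of Parse WT, Xrcc6 stood at 153 CPM, Xrcc4 at 64.6, Dclre1c at 39.4, Nhej1 at 24.0, Xrcc5 at 13.7, Lig4 at 12.5, Prkdc at 9.26, Atm at 5.28 and Trp53bp1 at 3.99. Per kb of the whole gene, introns included, the order changed to Xrcc6 at 13.1, Dclre1c at 9.18 and Lig4 at 7.52, with the other 6 between 0.170 and 0.862. Xrcc6 led on both scales, with the reads it may share with Desi1 included. The study classed more of the Parse WT transcripts as unspliced than as spliced. How many reads from introns entered these counts is not known, so neither scale gives the amount of mature mRNA.

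The 2 kits were compared in the same fit, with the classes named in each kit, of which G2/M was unlike between the kits. None of the 18 pairs of gene and comparison differed between kits by edgeR's quasi-likelihood test, 4 had an unadjusted p under 0.05, and over all genes 0.421% were called for the cycling and 0.543% for the mature comparison. The lowest adjusted p-values were those of Xrcc6 (Parse Mini minus Parse WT -0.36 ± 0.128, adjusted p = 0.276) and Dclre1c (-0.33, adjusted p = 0.283) against mature cells, while the widest difference was that of Nhej1 against mature cells (0.38 ± 0.264, adjusted p = 0.741). Without lobe 2 of Parse Mini both passed, at -0.48 (adjusted p = 0.0275) and -0.55 (adjusted p = 0.00182). The CD8 lineage of that lobe was low in Rag1 (162 CPM against 381 to 912 in the other lobes), Xrcc6 and Dclre1c alike.

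In the 16 other wells the 9 genes could be read in cell types that the thymic lobes held in small numbers or not at all. These wells have no assigned condition, so ranges over samples with at least 20 cells of a class are given without a test. The CD4 T class of these wells includes a cluster of 4532 cells with no CD4 T cell marker among its 10 leading genes, some of which (Gm44174, Fgf13, Sidt1 and Ifngas1) also led a CD8 T cluster. The CD8 T class includes one of 1532 cells led in part by Zbtb16, Ccl5 and Cxcr6. The erythroid class joins a cluster of 1484 cells led in part by Mpo, Mecom and Kit, with no erythroid marker among its 10 leading genes, so its levels are not those of mature cells alone. Xrcc6 had a median of 38.8 CPM in B cells (29.5 to 60.8), 42.9 in CD4 T cells and 42.1 in CD8 T cells, 22.1 in monocytes and 66.0 in the erythroid class. Xrcc5 stood at 89.7 CPM in B cells and 103 in CD8 T cells, and at lower values in monocytes (20.0) and dendritic cells (20.7). The Rag-expressing thymocytes of the 4 Parse WT lobes, at 585 CPM or more of Xrcc6, lay above the highest sample of each of these cell types, and at 31.7 to 38.3 CPM of Xrcc5 below the medians of B and T cells.

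A Rag-expressing cluster was present among the other wells as well, with 2179 cells in 11 samples and a median depth of 1106 UMIs, led by Arpp21, Rag1 and Dntt. Its Rag1 ranged from 182 to 715 CPM with a median of 378, against medians of 1.54 to 8.14 elsewhere in these wells. Xrcc6 stood at 232 CPM there (159 to 389), above the median of 66.0 in the erythroid class, the next highest, Dclre1c at 154 (65.3 to 199) and Lig4 at 24.7 (0 to 120) on 56 UMIs. Atm was at 101 CPM (80.4 to 172), Xrcc5 at 54.9 (15.0 to 83.8) and Trp53bp1 at 83.1 (42.0 to 124). These lay below the medians of B cells at 194, 89.7 and 103, with overlapping ranges. They lay above the medians of monocytes at 81.6, 20.0 and 40.9.

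Dclre1c differed widely between the classes of these wells. Plasmacytoid dendritic cells had a median of 306 CPM (140 to 392, 10 samples), macrophages 150.1 (86.4 to 324) and monocytes 106, against 76.7 in B cells and 47.7 in CD8 T cells. The 77 plasmacytoid dendritic cells of the Parse WT lobes held 586, 363, 374 and 348 CPM, against 324 to 431 CPM in the Rag-expressing thymocytes of these lobes. So few cells over 4 lobes cannot give each lobe the 20 cells asked of the other wells. RNA from other cells in these values was not tested. Lig4, by contrast, was sparse in the mature cells of these wells, with a median of 5.13 CPM in B cells, 4.81 in CD4 T cells and 3.80 in CD8 T cells, and 0 in dendritic cells and macrophages, where 11 and 7 UMIs were counted in all. The dividing G2/M cells of these wells, partly led by Mybl1, had 11.4 CPM of Lig4 and 222 of Atm.

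The remaining genes are given as medians, with no test. Atm lay at 194 CPM in B cells, 198 in CD4 T cells and 207 in CD8 T cells, and at 81.6 in monocytes. Trp53bp1 was at 103 CPM in B cells and 115 in regulatory T cells, with overlapping ranges, and at 40.9 in monocytes and 24.4 in the erythroid class. Prkdc was at 189 in B cells and 93.6 in plasma cells, Xrcc4 was at 138 in B cells and 169 in CD8 T cells, and Nhej1 was at 35.6 in neutrophils and 17.9 in B cells. In each of the pairs given for Prkdc, Xrcc4 and Nhej1 the ranges over samples overlapped. Monocytes and B cells did not overlap in Atm (47.8 to 129 and 138 to 243) or in Trp53bp1 (25.5 to 69.1 and 80.8 to 153).

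**Figure D4:**
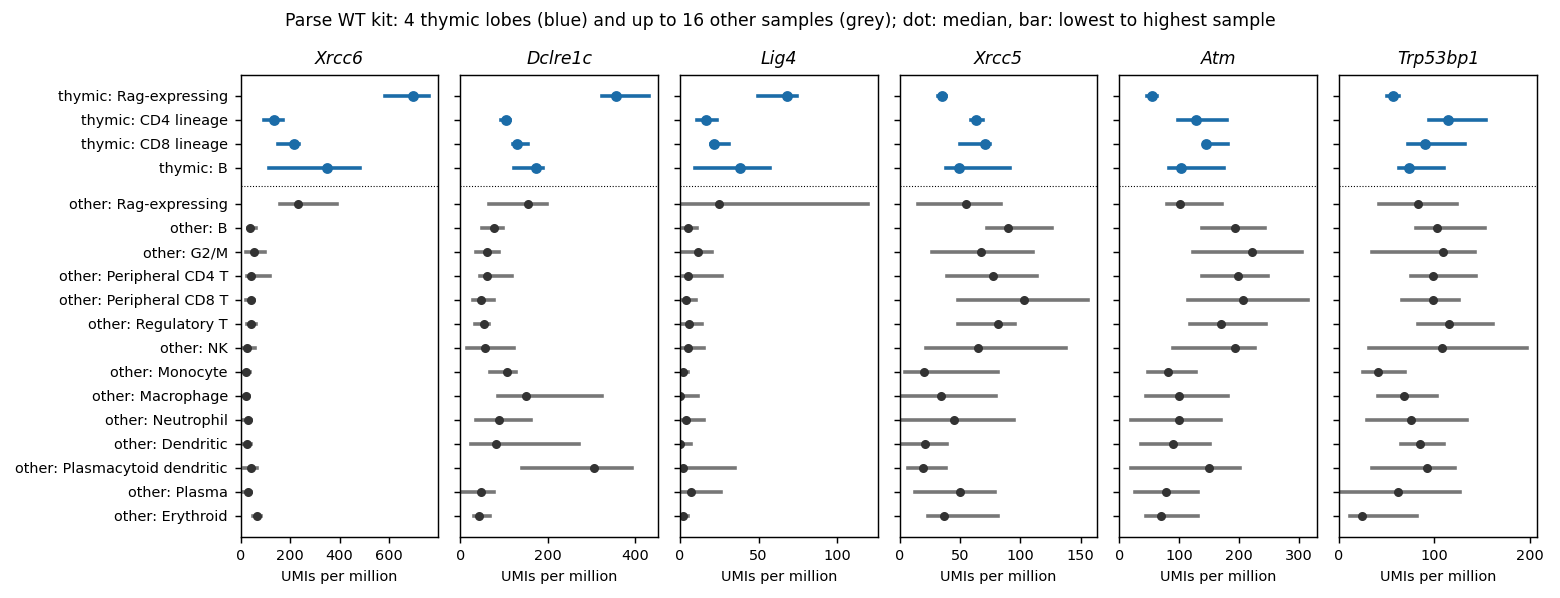
Levels of Xrcc6, Dclre1c, Lig4, Xrcc5, Atm and Trp53bp1 in CPM by class, with thymic classes of 4 Parse WT lobes in blue and classes of the other wells in grey, a dot at the median sample and a bar from the lowest to the highest. Of the thymic classes only the Rag-expressing, CD4 lineage, CD8 lineage and B cell-like ones are drawn, so S phase and G2/M thymocytes, with higher Xrcc6, and thymic plasmacytoid dendritic cells, with a higher median of Dclre1c on few cells, are not shown. Among the classes drawn the medians of Xrcc6, Dclre1c and Lig4 are highest in thymic Rag-expressing cells, with Dclre1c also high in plasmacytoid dendritic cells of the other wells, and Xrcc5 and Atm are higher in the B and T cells of the other wells.

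Some of the 9 genes share a start region with a neighbour that points away from it. Prkdc lies 466 bases from Mcm4, a subunit of the replicative helicase, and Mcm4 was lower in Rag-expressing than cycling cells by 1.99 in Parse WT and 1.87 in Parse Mini, far more than Prkdc. Atm lies 307 bases from Npat, the activator of histone genes, which was likewise lower than in cycling cells (-0.74 and -0.68) but not lower than in mature cells (0.31 in Parse WT, adjusted p = 0.00363, and 0.14 in Parse Mini, adjusted p = 0.233). Lig4 lies 21 bases from Abhd13, which was higher than in mature cells by 0.81 and 0.87, with values of -0.04 and 0.14 against cycling cells that missed the threshold. The start of Xrcc4 overlaps that of Tmem167, which was lower than in cycling cells (-0.51 and -0.45) where Xrcc4 was higher. Of the 4 pairs, Lig4 and Abhd13 went the same way in both kits against mature cells, and Prkdc and Mcm4 and Atm and Npat against cycling cells. Against mature cells Mcm4 was also lower in Parse WT (-0.71, adjusted p = 3.58e-07), as Prkdc was, and in Parse Mini its value was -0.19 (adjusted p = 0.28).

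Likeness of pattern was ranked by Pearson correlation of mean log2 CPM over the 9 thymocyte classes of Parse WT among 9413 genes. Nearest to Xrcc6 were Ly6d (0.990), Desi1 (0.987) and Rapgef3 (0.986). Nearest to Dclre1c were Dnai4 (0.986), Mad1l1 (0.974) and Gm15340 (0.970), to Lig4 Dgkeos and Dgke (0.980 each) and the E protein gene Tcf12 (0.979), and to Xrcc4 Rsf1 (0.973). Xrcc5 was nearest to Suclg2 (0.981) and Irf1 (0.971), Prkdc to Rpl35a (0.940), Nhej1 to Zfp871 (0.959), Atm to Cmtr1 (0.943) and Trp53bp1 to Pisd (0.964). Among the 9 genes themselves the correlation of Xrcc6 with Lig4 was 0.959 in Parse WT and 0.581 in Parse Mini, that of Xrcc6 with Nhej1 0.830 and 0.913, that of Xrcc5 with Atm 0.837 and 0.753, and that of Xrcc6 with Xrcc5 -0.730 and -0.570. These are descriptions over 9 classes that share lobes and library, with no test. The classes were named in each kit on its own and do not match throughout: the strongly signalled class of Parse Mini was led by Hecw2, A430093F15Rik and Hivep3, which in Parse WT led clusters of the selected class, so correlations of the kits are not compared.

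Other repair genes were counted from lists, and like the 9 genes they were left out of the clustering. Against cycling cells 31.4% of all genes were higher and 32.0% lower in Parse WT, and 32.3% and 29.7% in Parse Mini. Of 16 homologous recombination genes tested in Parse WT, 14 were lower in Rag-expressing than in cycling cells and 2 higher, with a median of -3.19, and in Parse Mini 14 of 16 were lower and 1 higher, with a median of -3.91. Among those furthest from 0 were Rad54b (-4.85 and -5.44), Rad54l (-4.36 and -5.43), the exonuclease Exo1 (-4.51 and -5.25) and Brca1 (-4.12 and -4.77). Of 8 alternative end-joining genes 7 were lower and none higher in both kits, with Polq, the polymerase theta of that pathway, at -4.52 and -4.65 and list medians of -2.17 and -2.23. Break signalling genes were mostly lower too, 12 of 16 in Parse WT and 11 of 15 in Parse Mini, with 1 higher in each. The 9 end-joining genes moved both ways and had medians of -0.14 and -0.11, against 0.01 and 0.04 over all genes. These medians are the values of Xrcc6, which missed the threshold.

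Against mature cells, where 25.9% of all genes were higher and 27.7% lower in Parse WT and 23.2% and 23.9% in Parse Mini, the medians of the homologous recombination, alternative end-joining and break signalling lists lay nearer to 0 than against cycling cells in both kits. Homologous recombination genes were lower in 10 of 16 and higher in 2 in Parse WT, and lower in 6 and higher in 2 in Parse Mini, with Rad51b (-1.81 and -1.30) and Rad54l (-1.11 and -1.32) among the largest. Alternative end joining had 6 of 8 lower and none higher in Parse WT, and 4 lower and 1 higher in Parse Mini. Break signalling had 7 lower and 2 higher of 16 in Parse WT, and 7 lower and none higher of 15 in Parse Mini. Of 14 accessory end-joining genes in Parse WT 6 were higher and 2 lower, and of 13 in Parse Mini 3 were higher and 2 lower. Parp3, a poly(ADP-ribose) polymerase that acts at breaks, stood at -2.003 and -2.32. It was among the genes whose level differed between barcoding wells of the same lobe. Dntt is counted in the accessory list and among the recombinase genes below. Against cycling cells the accessory genes split into 5 higher and 7 lower, and 4 higher and 7 lower.

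Of the targets of p53, against mature cells 2 were higher and 2 lower of 9 in Parse WT and of 7 in Parse Mini. These counts lie near the share over all genes, of which 25.9% were higher and 27.7% lower in Parse WT, and 23.2% and 23.9% in Parse Mini. Against cycling cells 4 of 9 in Parse WT and 5 of 7 in Parse Mini were higher and 1 and none lower. There 31.4% of all genes were higher and 32.0% lower in Parse WT, and 32.3% and 29.7% in Parse Mini. The recombinase list (Rag1, Rag2, Dntt, Hmgb1 and Hmgb2) had 4 of 5 higher against mature cells and 3 higher and 2 lower against cycling cells in both kits. It holds the naming markers Rag1 (2.49 and 2.11 against mature cells), Rag2 (2.45 and 2.01) and Dntt (2.23 and 1.84), which helped to choose the class and are given as a description. Xrcc6, at 2.08 and 1.69, came close to them.

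**Figure D5:**
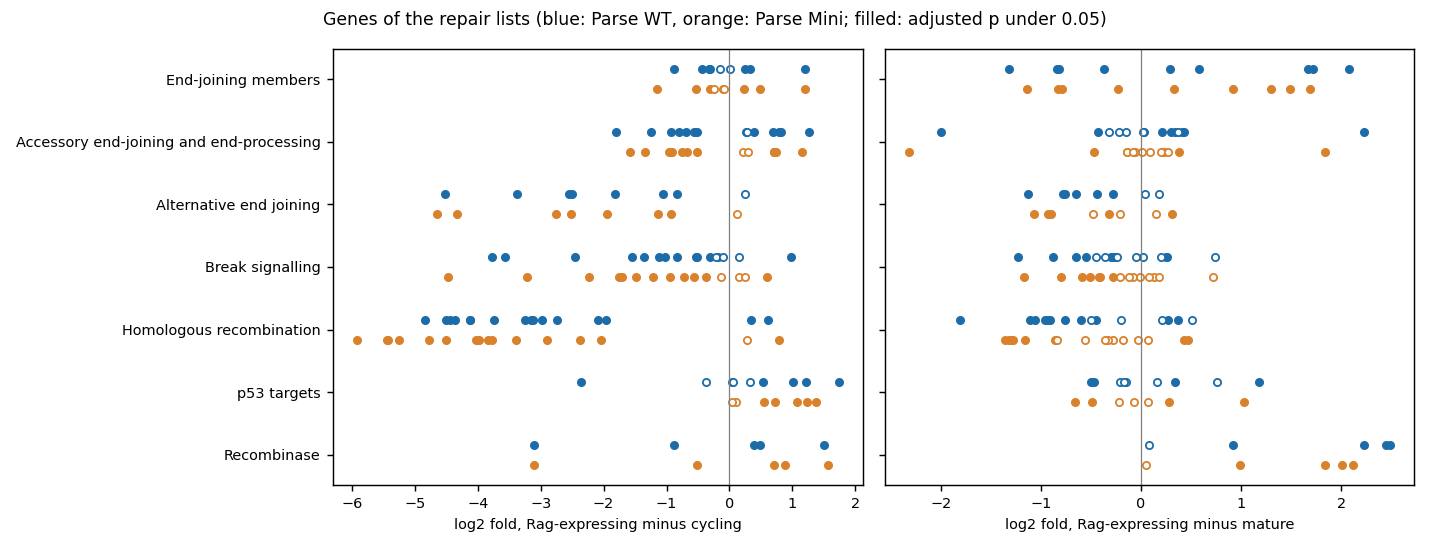
Log2 difference between Rag-expressing and cycling or mature thymocytes for every tested gene of the repair lists, 1 point per gene and kit. Against cycling cells the homologous recombination and alternative end-joining genes extend far below 0, with Rad54b at -4.85 and -5.44, while the 9 end-joining genes stay between -1.16 and 1.21.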

How the data were processed

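Raw UMI counts for each cell were deposited by the authors, who had used split-pipe with an mm10 reference taken from Ensembl (release: not given in the sources used here), beside a cell table and a gene list per kit. That cell table gave the tissue sample of a cell, and the samples that carry a name of their own in the Parse WT table were taken as the thymic lobes from that name and the study's design, since no label says so. The 10x libraries were not analysed here. The 9 genes and all lists were chosen with earlier results of these data known.

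Cells outside 500 to 25000 UMIs or above 15% mitochondrial UMIs were dropped, and the 5% of each sample with the highest simulated-doublet score were left out. The study, with another method, called a larger share of cells doublets in both kits. In Parse WT its share was also above the 25% left out in the strictest alternative. How many doublets remain in the class sums is not known. Cells were clustered (30 components, 20 neighbours, leidenalg 0.10.2, Python 3.11.15) without the 9 genes, the other listed repair genes and 1204 genes that differed between wells. A cluster was named where at least 3 markers were raised 1.25-fold and the list mean log2 fold was at least 0.7 (0.4 for Rag-expressing). Exceptions had median UMIs over 3 times those of their samples (thymic lobes only), or low UMIs with no marker among the 10 leading genes. The first of these left out an S phase-like cluster (1593 cells) and a G2/M-like cluster (1513) in Parse WT, and G2/M-like clusters (963 and 684) and a double-negative-like cluster (364) in Parse Mini, and the second a Rag-expressing-like cluster (1274) in Parse Mini. Another 5 clusters in Parse WT and 3 in Parse Mini stayed unnamed because their markers were raised too little. In the other wells markers were measured against the lower quartile of the other clusters, and not against all other cells. An erythroid cluster of 2325 cells there was named at 3.69 times the median UMIs of its samples. An alternative put every unnamed cluster in its nearest class, and others left out CD4 clusters that shared at least 5 of their 10 leading genes with a selected cluster, or summed the Parse Mini lobes by the last letter of the sample name. UMI counts were summed per lobe and class and fitted for 9 thymocyte classes with edgeR 4.0.16 (R 4.3.3, filterByExpr, TMM, quasi-likelihood test, Benjamini-Hochberg over all genes tested, threshold 0.05), with the lobe as a block since each lobe gives every class. The cycling contrast is Rag-expressing minus the mean of S phase and G2/M, and the mature contrast Rag-expressing minus the mean of the CD4 and CD8 lineages. DESeq2 1.42.0, other scalings and filters, left-out lobes and classes from gates on marker UMIs were alternatives. Depth ranged from 2912 to 3900 median UMIs per cell in the Parse WT lobes and from 2306 to 3078.5 in Parse Mini.

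Tested on simulated data with 200 genes changed, the fit recovered 89% of 1.5-fold changes in the Parse WT cycling contrast, 76% in its mature contrast, 88% and 83% in Parse Mini, and 99% to 100% of 2-fold changes, with 5.05%, 2.78%, 6.47% and 7.11% of the calls false in these 4 fits. The simulation changed genes in the Rag-expressing class only and held no difference between lobes. In the data 47.1% to 63.4% of genes were called, and the false share under such conditions was not tested. Named genes are the 9, from the other lists at most the 6 largest changes per contrast that passed in the same direction in both kits, neighbours with starts within 1 kb, and the 3 genes most alike in pattern, and a few genes that these rules name are not reported here. Of 57010 gene IDs, 52029 were found in GENCODE M21, which gave loci and lengths, and its coordinates are those of GRCm38, the assembly that mm10 stands for. Promoters were matched by symbol in RefSeq for 8 of the 9 genes.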

Additional observations from a re-analysis of the deposited data

Results flagged for a closer look

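Of 90 groups of 4 lobes looked at (9 genes and 5 classes in each kit), 5 held a lobe whose distance to the nearest other lobe, divided by the range of the group, was above the critical value of Dixon's test, and chance flags about 1 in 20 groups. Xrcc6 in G2/M of Parse WT was 621 CPM in lobe 4 against 796 to 821 in the others, and Xrcc5 in the same class was 29.9 CPM in lobe 4 against 33.0 to 33.6. In lobe 1 of Parse WT, Dclre1c in G2/M was 229.8 CPM against 170.4 to 180.4 in the others, and Atm in the CD8 lineage was 182 CPM against 142 to 147. Lig4 in S phase of Parse Mini was 66.5 CPM in lobe 3 against 53.7 to 55.5.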

How the results depend on the processing

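Of 610 alternative values for the 36 pairs of gene and comparison, 555 kept their direction and their side of the threshold, 27 kept the direction and lost the threshold, 13 kept it and passed, and 15 changed sign. The number of genes called ranged from 5 to 8 against cycling cells and from 6 to 9 against mature cells in Parse WT, and from 4 to 8 and from 8 to 9 in Parse Mini. Gates gave 5 and 6 in Parse WT and thinned cells 4 and 8 in Parse Mini, and no alternative gave fewer. Without the replicate block the counts were 6 and 9 in both kits, and the block changed the call of Lig4 against cycling cells in Parse WT and no other call of the 9 genes. DESeq2 gave 7 and 9 in Parse WT, and 6 and 9 in Parse Mini.

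The sign changes were all against cycling cells. In Parse WT Trp53bp1 was -0.10 against S phase alone, -0.0017 with DESeq2, -0.0425 without lobe 2, -0.0034 without lobe 3, -0.22 with gates and -0.0533 with unnamed clusters put in the nearest class. Also in Parse WT, Prkdc was 0.0426 and Xrcc5 0.0344 against G2/M alone, and Xrcc6 was 0.0543 with gates. In Parse Mini Xrcc6 was 0.10 against S phase alone and 0.0349 with unnamed clusters assigned, Nhej1 was 0.0671 against S phase alone, Xrcc5 was 0.0482 and Trp53bp1 0.18 against G2/M alone, and Trp53bp1 was 0.10 with thinned cells. The cause was not tested. Leaving out lobes moved the number of kit differences between 0 and 2, with 2 without lobe 2 of Parse Mini. The assignment of unnamed clusters, the mature class without the CD4 cluster close to selected cells and the lobes summed by the last letter of the sample name were chosen after seeing the data, and Nhej1 gave no value in Parse Mini with thinned cells. With no filter on low counts the median of all genes shifted to 0.13 and 0.19 in Parse WT and to 0.13 and 0.14 in Parse Mini, and Xrcc5 against cycling cells missed the threshold in both kits, as did Prkdc against mature cells in Parse Mini (-0.13). Depth limits Nhej1 and Lig4 most, with 27 and 51 UMIs in the CD8 lineage of Parse Mini.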
